A study of Mus musculus with 12 samples.

Results

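The genes that copy the genome were followed through retinoic acid-induced neuronal differentiation of P19 cells, a mouse embryonal carcinoma line of wild-type genotype that can be turned into neurons in culture. The set held 41 genes of DNA replication, fixed by name and taken from reads that passed the tail-calling quality check, were classed as mRNA and carried the gene's name. They were 41 of the 14042 genes with reads, and 22587 of the 4274320 reads kept. Poly(A) RNA was sequenced directly on nanopores, so that each read stood for 1 RNA molecule and also gave a length for its poly(A) tail. The 4 groups were D0 (cells before differentiation) and D2, D4 and D6 (2, 4 and 6 days in a neural medium with 500 nM retinoic acid), with 3 replicates each, 12 libraries in all. All groups were the same unmodified line, and no later library of untreated cells was among those analysed here, so that time, medium and retinoic acid cannot be told apart. The 3 libraries of a day were barcoded and sequenced together, and each of the 13 sequencing runs held 1 day, so that day and run cannot be told apart either.

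DNA replication begins when the origin recognition complex, Cdc6 and Cdt1 load the ring-shaped Mcm2 to Mcm7 helicase onto DNA in G1 phase. In S phase, Cdc45 and the GINS complex switch the helicase on, primase and the polymerases copy both strands, the Pcna clamp, placed by the Rfc loader, holds the polymerases on DNA, and Fen1 and Lig1 seal the lagging strand. Nucleotide enzymes supply the precursors, and chromatin assembly factor wraps the new DNA. Most of these genes are transcribed ahead of and during S phase, many of them under E2F transcription factors, and cells that leave the cell cycle, such as neurons, lower them.

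The promoters were read for the letters of an E2F site because the genes share this regulator in textbook accounts. RefSeq windows of 300 bases (250 before the transcription start and 50 after it, build GRCm38.p6) matched 34 of the 41 genes, in 39 windows. The motif searched was any of 4 words of 8 letters on either strand: TTTGGCGC, TTTCGCGC, TTTCCCGC and TTTGCCGC. It was in 30.8% of the 39 windows, against 4.27% of the 9631 windows of genes tested here and 2.26% of all 32851 windows. The shorter CCAAT box, on either strand, was in 61.5% of the 39 windows and in 37.4% of all windows. By gene, 12 of the 34 held the E2F-type letters, and 8 of them held a match before the start. Those matches are shown because the genes behind them behaved differently over the time course, from Orc1, with the largest fall, to Rfc3, which was not lower at D6. In each 30-base stretch, written 5′ to 3′ on the gene's strand, the capitals mark the match, and overlapping matches run together.
Orc1: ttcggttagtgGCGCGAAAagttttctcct
Cdc6: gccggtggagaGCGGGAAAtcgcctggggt
Mcm5: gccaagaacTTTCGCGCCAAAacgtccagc
Mcm6, far: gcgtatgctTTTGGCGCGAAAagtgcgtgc
Mcm6, near: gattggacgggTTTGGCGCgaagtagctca
Mcm7: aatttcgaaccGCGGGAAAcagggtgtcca
Gins3: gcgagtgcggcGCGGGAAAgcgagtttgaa
Rfc3: ccggaagtgacgtcgcacgcTTTCGCGCtc
Pola1: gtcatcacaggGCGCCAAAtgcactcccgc

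The stretches lay at chr4:108579416-108579445 on the plus strand for Orc1, chr11:98908002-98908031 on the plus strand for Cdc6, chr8:75109347-75109376 on the plus strand for Mcm5 and chr8:95633507-95633536 on the plus strand for Gins3. On the minus strand they lay at chr1:128359795-128359824 and chr1:128359734-128359763 for Mcm6, chr5:138172030-138172059 for Mcm7, chr5:151651209-151651238 for Rfc3 and chrX:93632275-93632304 for Pola1. In the GENCODE vM21 annotation of the same genome, those of Mcm5, Mcm6 and Pola1 lay wholly outside the gene. Those of Mcm7, Gins3 and Rfc3 lay in an exon, that of Orc1 overlapped an exon by 23 bases, and that of Cdc6 lay in an intron, since GENCODE starts these genes further upstream than RefSeq. The letters were found in 9 of the 23 matched genes that were lower at D6 (39.1%) and in 3 of the 11 that were not called (27.3%). A match in these letters is a description of the sequence and not a measured binding site. The genes themselves lay on 14 chromosomes, with 8 on chromosome 5.

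Library size ran from 120326 kept reads (a D2 library) to 613756 (a D0 library), and each library held 833 to 3281 reads of the 41 genes. Levels are given as CPM, read counts per unit of library size after trimmed-mean (TMM) scaling, and changes come from limma-voom over the 9309 genes with at least 30 reads, all 41 among them, called at an adjusted p of at most 0.05. The replication genes were counted by 57 (Gins3) to 3083 (Pcna) reads each, median 482, and counting error is the limit for the least-read ones. The labelled states could be seen in marker genes fixed by name. The 8 pluripotency markers summed to between 2134 and 2435 CPM at D0 and to between 181 and 228 CPM at D6 (Zfp42 had no read in any library), and the 12 neuronal markers to between 567 and 593 CPM at D0 and between 3150 and 3436 CPM at D6, where 11 of 11 tested were higher than at D0. The 8 neural progenitor markers rose from between 237 and 288 CPM to between 1242 and 1402 CPM, with 8 of 8 tested higher at D6. Glial markers summed to at most 107 CPM in any library, with Aqp4 and S100b at 0 throughout. Mesoderm and endoderm markers summed to at most 7.92 CPM, with T, Gata4, Sox17, Tnnt2 and Afp at 0 throughout. Fibroblast and smooth muscle markers summed to at most 44.4 CPM, at D0, and to at most 7.46 CPM at D6, with Col3a1 and Postn at 0 throughout. The mitochondrial share of passing reads, left out of the library sizes, moved with the days from between 3.82% and 4.46% at D0 to between 8.18% and 10.4% at D6, and its part in the results was not tested. In bulk RNA, fewer cycling cells and less RNA per cell cannot be told apart.

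As a share of all kept reads they made up 0.548% ± 0.0141 (SD, n = 3) at D0, 0.722% ± 0.0261 at D2, then 0.527% ± 0.0146 at D4 and 0.393% ± 0.0252 at D6. The 3 D2 libraries lay between 0.692% and 0.742%, above all other libraries, and the 3 D6 libraries lay between 0.369% and 0.419%, below all others. The D0 and D4 libraries overlapped. On the scaled level the sum was 6011 ± 68.4 CPM at D0, 6972 ± 327 at D2, then 5305 ± 276 at D4 and 3684 ± 106 at D6, so that the rise at D2 was smaller after scaling than in the raw shares. By gene, 29 of the 41 had their highest mean at D2, 11 at D0 and 1 (Rrm1) at D4, and 40 had their lowest mean at D6, the exception being Rfc3, lowest at D0.

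**Figure D1:**
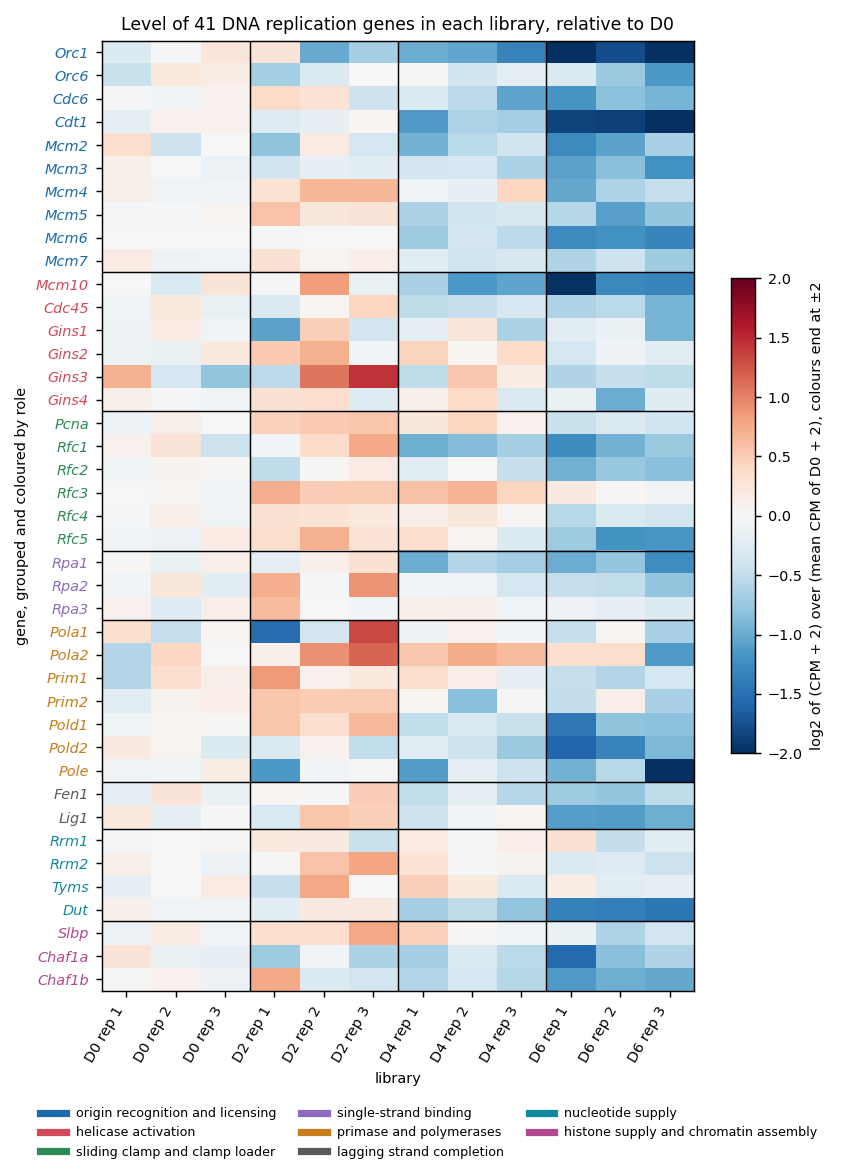
Level of each of the 41 genes (rows, grouped and coloured by role) in each of the 12 libraries (columns) as the log2 of CPM plus 2 over the D0 mean plus 2; red is above D0, blue below, and colours end at 2 in either direction while values ran from -3.82 to 1.45. The D6 columns are blue in nearly every row, and the D2 columns hold most of the red.

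At D2, 4 of the 41 genes were higher than at D0 (Pcna, Rrm2, Mcm4 and Rfc3), a share to be read against the 4.48% of all genes tested that were higher, and 0 were lower, against 6.23% of all genes. At an unadjusted p under 0.05 the limma-voom counts were 12 higher and 0 lower, against 988 higher and 1201 lower of all 9309 genes. With limma-trend, too, 0 were called lower. The median log2 fold change of the 41 was 0.16, against -0.05 over all genes tested, and 28 of the 41 were above 0. In 9 genes the D2 libraries lay wholly above the D0 libraries, as in 9.9% of all genes, and in 1 (Mcm3) wholly below, as in 18.2% of all genes. Pcna, the sliding clamp, was measured at 639, 749 and 692 CPM at D0 and at 950.1, 996 and 1017 CPM at D2. All of its D2 libraries lay above all of its D0 libraries, a log2 fold change of 0.51 ± 0.12 (SE, adjusted p = 0.00123). The call of Pcna held in each of 23 alternative settings, with adjusted p between 7.2e-07 and 0.0211. The other 3 calls were less secure. The number of genes called higher was 1 without D0 replicate 3 or D2 replicate 3, and 2 without D0 replicate 1, D0 replicate 2, D2 replicate 2, D4 replicate 1 or D4 replicate 2. Without D0 replicate 2 or D2 replicate 2, Mcm4, Rfc3 and Rrm2 were all lost, so that 1 of the 2 genes was not among the 4. Library totals alone as scaling gave 9 higher, and over all genes 720 higher and 373 lower in place of 417 and 580.

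At D4, 1 gene was higher than at D0 (Rfc3, against 12.5% of all genes) and 12 were lower, against 12.9% of all genes, so that 29.3% of the set was lower. Of the 12, 7 belonged to origin recognition and licensing. The median log2 fold change was -0.24, against -0.01 over all genes, and in 17 genes the D4 libraries lay wholly below the D0 libraries, as in 20.2% of all genes. Without D4 replicate 2 the counts were 0 higher and 5 lower, and without D0 replicate 1 or D0 replicate 3 7 genes were lower. Without D0 replicate 2, D4 replicate 3 or D6 replicate 3, 2 were higher. Under library totals 5 were lower and 3 higher, with 1537 higher and 921 lower over all genes in place of 1159 and 1200.

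At D6, 26 of the 41 genes (63.4%) were lower than at D0, against 18.2% of all genes tested, and 0 were higher, against 19.4%. At an unadjusted p under 0.05, 29 were lower and 0 higher, against 2064 lower and 2200 higher of all 9309 genes. With limma-trend, too, 0 were called higher. All but Rfc3 had a log2 fold change below 0, with a median of -0.70 against 0.01 over all genes. For 30 of the 41 the 3 D6 libraries lay wholly below the 3 D0 libraries, as they did for 22.9% of all genes. Of the 26 calls, 21 held whichever library was left out, and the number of lower genes stayed between 23 and 28. It was 21 with library totals alone (2588 higher and 1162 lower over all genes, in place of 1806 and 1695). It was 16 of 39 tested when reads of a mapping quality under 10 were dropped, and 12 of 39 tested when every library was thinned to the smallest. These last 2 settings leave fewer reads, and no count over all genes is given for them. How far the set stood out from all genes there was not tested. The comparisons of D2, D4 and D6 with D0 share the D0 libraries. The neighbouring steps do not share D0: from D2 to D4, 5 genes were lower and 0 higher (against 1.05% and 1.96% of all genes), and from D4 to D6, 10 were lower and 0 higher (against 3.88% and 4.47%). At an unadjusted p under 0.05 the step from D2 to D4 had 17 lower and 0 higher, against 632 and 835 of all 9309 genes. The step from D4 to D6 had 22 lower and 0 higher, against 918 and 1092. With limma-trend 0 were called higher in either step. In 14 genes the D4 libraries lay wholly below those of D2 (7.21% of all genes), and in 25 the D6 libraries wholly below those of D4 (10.7%). Without D2 replicate 3, 3 genes were lower from D2 to D4. Under library totals 7 were lower from D4 to D6, with 573 higher and 257 lower over all genes in place of 416 and 361.

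**Figure D2:**
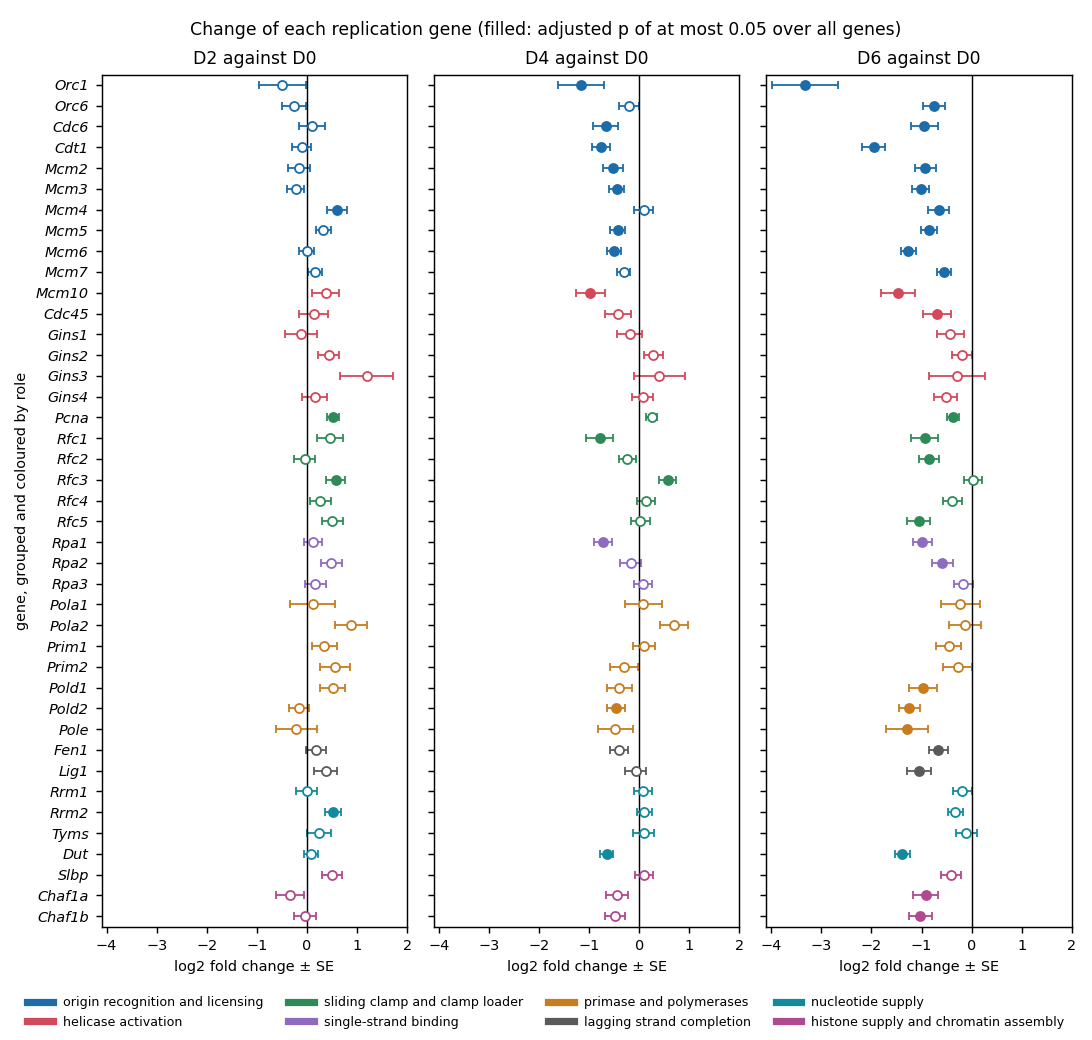
Log2 fold change ± SE of each of the 41 genes (rows, coloured by role) at D2, D4 and D6 against D0, with 3 libraries a day. Filled points were called at an adjusted p of at most 0.05 over all genes tested: 4 higher at D2, 1 higher and 12 lower at D4, and 26 lower at D6.

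Origin recognition and licensing, the step that loads the helicase, was lower throughout at the last day: 10 of 10 genes were called lower at D6 (median log2 fold change -0.93, against 18.2% of all genes lower) and 7 of 10 at D4 (median -0.48, against 12.9%). At D2, 1 was called higher (against 4.48%), Mcm4, in 8 of 23 alternative settings. Their summed level was 1923 ± 51.8 CPM at D0, 1982 ± 23.4 at D2, then 1424 ± 44.3 at D4 and 986 ± 31.0 at D6 (SD, n = 3), so that D0 and D2 overlapped and each later day lay wholly below.

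Orc1, the largest subunit of the origin recognition complex and the gene with the largest change in the set (chr4:108579423-108614833, plus strand), had few reads. It was measured at 21.5, 25.9 and 31.4 CPM at D0, at 31.7, 12.1 and 15.9 CPM at D2, at 12.2, 11.7 and 9.21 CPM at D4, and at 0, 6.27 and 0 CPM at D6. In reads, D0 held 38 and D6 held 3, a ratio of 9.84 of D0 to D6 for equal scaled depth, with a 95% exact interval of 3.12 to 49.8 that covers counting error only. The fitted log2 fold change at D6 was -3.32 ± 0.66 (adjusted p = 3.9e-05), and it depends on the prior count because 2 libraries held no read. The D4 libraries also lay wholly below D0 (-1.16 ± 0.45, adjusted p = 0.0479), a call that was lost without D0 replicate 2 or 3 or without any D4 library (adjusted p up to 0.17). Of the 21 alternative settings that gave a value, 10 called it, and the adjusted p was highest, at 0.231, with limma-trend.

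Cdt1, which brings the helicase to the origin and is removed once S phase begins, fell by 1.96 on the log2 scale at D6 (SE 0.23, adjusted p = 1.4e-10) and by 0.77 at D4 (SE 0.18, adjusted p = 0.00066). The D4 call of Cdt1 was lost with the mapping quality minimum (-0.66, adjusted p = 0.0716) and after thinning (-0.54, adjusted p = 0.29). Its mean was 180.3 ± 17.9 CPM at D0, 165 ± 17.9 at D2, then 103 ± 19.1 at D4 and 45.7 ± 4.50 at D6. Cdc6, its partner in loading, went from 78.7 ± 4.48 to 39.3 ± 5.28 CPM between D0 and D6 (log2 fold change -0.94, adjusted p = 0.00327), but only 29.9% of its reads had a mapping quality of at least 10, and with those reads alone the value was 0.0545 (adjusted p = 0.952). The call of Cdc6 was also lost with the most-read transcript alone (-0.75, adjusted p = 0.0925) and after thinning (-1.09, adjusted p = 0.116).

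Among the helicase subunits, Mcm6 was at 327, 328 and 325 CPM at D0, at 317, 329 and 323 at D2, at 199, 253 and 226 at D4, and 134, 140.1 and 129.6 at D6. D0 and D2 overlapped and D4 and D6 each lay below the day before, with a log2 fold change at D6 of -1.26 ± 0.16 (adjusted p = 6.4e-10). Mcm7, the most-read gene of this role, was at 417, 348 and 354 CPM at D0, at 459, 386 and 408 at D2, at 321, 281 and 299 at D4, and at 246, 278 and 227 at D6. Its D6 libraries lay below D4, and D4 below D0, but the change was smaller, -0.56 ± 0.14 at D6 (adjusted p = 0.000803).

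Mcm4 was the helicase subunit called higher at D2. It was at 126, 111 and 111 CPM at D0 and at 143, 185 and 185 CPM at D2 (log2 fold change 0.60 ± 0.20, adjusted p = 0.045), then at 109.8, 103 and 157 CPM at D4 and 55.9, 75.3 and 83.7 CPM at D6. The D2 call was lost when any D0 or D2 library, or D4 replicate 1 or 2, was left out (adjusted p up to 0.205), and the D6 call (-0.66 ± 0.21, adjusted p = 0.0111) was lost without D6 replicate 1 (-0.54, adjusted p = 0.0541), with library totals (-0.42, adjusted p = 0.116) and after thinning (-0.23, adjusted p = 0.697). Mcm2, Mcm3 and Mcm5 were lower at D6 by -0.92, -1.02 and -0.85 on the log2 scale. Of the Mcm5 reads 14.5% had a mapping quality of at least 10, and with those alone its D6 value was not called (adjusted p = 0.474). Orc6, a small subunit of the origin complex, was lower by -0.76, a call lost without D6 replicate 3 (adjusted p = 0.0622), with the mapping quality minimum (-0.59, adjusted p = 0.0797) and after thinning (-0.42, adjusted p = 0.441).

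The genes that switch the helicase on divided into Mcm10 and Cdc45, called lower at D6, and the 4 GINS subunits, of which limma-voom called 0 (1, Gins4, was lower at an unadjusted p under 0.05). Mcm10, which joins the helicase as the fork opens, was at 64.4, 51.8 and 77.5 CPM at D0, 63.3, 116 and 58.2 at D2, 40.7, 28.1 and 29.9 at D4, and 14.9, 25.1 and 24.3 at D6. Its D4 and D6 libraries lay wholly below D0, with log2 fold changes of -0.98 ± 0.29 (adjusted p = 0.009) and -1.46 ± 0.34 (adjusted p = 0.000351). The D4 call was lost without D0 replicate 3 or D4 replicate 2 (adjusted p = 0.0591 and 0.0628), with the most-read transcript alone (-0.83, adjusted p = 0.117) and after thinning (-1.10, adjusted p = 0.231). The D6 call was lost with the 17.5% of its reads of high mapping quality alone (-1.22, adjusted p = 0.103) and after thinning (-1.58, adjusted p = 0.0731).

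Gins2, the most-read GINS gene, was at 103, 99.9 and 127.8 CPM at D0, 158, 181 and 106 at D2, 150.5, 113 and 143 at D4, and 85.7, 102 and 94.5 at D6. The D6 libraries overlapped those of D0, and the difference was -0.19 ± 0.20 on the log2 scale (adjusted p = 0.491). With 1 library left out it was lowest, at -0.31, without D0 replicate 2 and highest, at -0.115, without D0 replicate 3, and with library totals it turned to 0.0512. With the 62.2% of its reads that had a mapping quality of at least 10, Gins2 was called lower (-0.84, adjusted p = 0.0155). Gins1, Gins3 and Gins4 differed by -0.42 ± 0.27, -0.30 ± 0.56 and -0.52 ± 0.23 (SE), and the 57 reads of Gins3 left it the widest error of these (0.0642 without D0 replicate 1, -0.66 without D0 replicate 3). With 1 library left out Gins1 ran from -0.62 (without D6 replicate 2) to -0.16 (without D6 replicate 3), and Gins4 from -0.66 (without D6 replicate 3) to -0.18 (without D6 replicate 2). Cdc45 was lower by -0.70 ± 0.28 (adjusted p = 0.0405), and the call was lost without D0 replicate 2 or without any D6 library (adjusted p up to 0.157). With the mapping quality minimum Cdc45 was at -0.37 (adjusted p = 0.521) and after thinning at -0.10 (adjusted p = 0.898), and it was called in 12 of the 23 alternative settings in all. Gins4 was called lower in 8 of 23 alternative settings, 6 of them with 1 library left out (adjusted p from 0.0346 to 0.63 over the 23). The split of calls between these genes thus changed with the setting, and it is not a test that their changes differ.

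The clamp and its loader stood highest at D2 and lowest at D6. Their summed level went from 1266 ± 76.3 CPM at D0 to 1704 ± 76.9 at D2, then 1420 ± 155 at D4 and 920.2 ± 32.8 at D6, with all D2 libraries above and all D6 libraries below those of D0. Pcna, which has a read total of 3083 and lies at chr2:132249162-132253314 (minus strand), was at 809, 936 and 732 CPM at D4 and at 511, 569 and 526 CPM at D6. The D6 libraries lay below those of every other day, by -0.37 ± 0.12 against D0 (adjusted p = 0.00874) and -0.61 ± 0.12 against D4 (adjusted p = 0.000154). With library totals alone the difference from D0 was -0.13 and was not called (adjusted p = 0.299), nor was it after thinning (-0.42, adjusted p = 0.0587).

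Rfc3 and Rfc5 are small subunits of the same loader, and their values are set side by side. Rfc3 was at 119, 124 and 113 CPM at D0, 198, 169 and 169 at D2, 179, 192 and 161 at D4, and 134, 121 and 113 at D6. D2 and D4 lay wholly above D0 (0.57 ± 0.19, adjusted p = 0.0428, and 0.57 ± 0.17, adjusted p = 0.00775), and D6 overlapped D0 (0.04 ± 0.18, adjusted p = 0.897), with a sign that turned in 9 of 23 alternative settings. The D2 call was lost when any D0 or D2 library, or D4 replicate 1 or 2, was left out (adjusted p up to 0.185), and the D4 call without D4 replicate 2 (adjusted p = 0.0526).

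Rfc5 was at 112, 107 and 132 CPM at D0, 150.4, 193 and 143 at D2, 150.5, 122 and 96.7 at D4, and 70.8, 50.2 and 51.3 at D6. Its D6 libraries lay below those of every other day, by -1.06 ± 0.23 against D0 (adjusted p = 0.000134; -0.70 and adjusted p = 0.217 after thinning). The ratio of Rfc3 to Rfc5 reads within a library does not depend on scaling. It was 1.03 ± 0.153 at D0, 1.13 ± 0.226 at D2, then 1.48 ± 0.254 at D4 and 2.17 ± 0.263 at D6 (SD, n = 3), the D6 libraries (1.89 to 2.42) lying above all others. The pair was chosen after its values were seen, and the ratio is given as a description. Among the rest, Rfc1, the large subunit, and Rfc2 were lower at D6, with log2 fold changes of -0.94 ± 0.28 and -0.84 ± 0.20, and Rfc4, at -0.38 ± 0.19, was not called (adjusted p = 0.113). Only 2.38% of Rfc1 reads had a mapping quality of at least 10, too few to test, and its D6 call was lost with the most-read transcript (-0.78, adjusted p = 0.145) and after thinning (-0.80, adjusted p = 0.198).

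**Figure D3:**
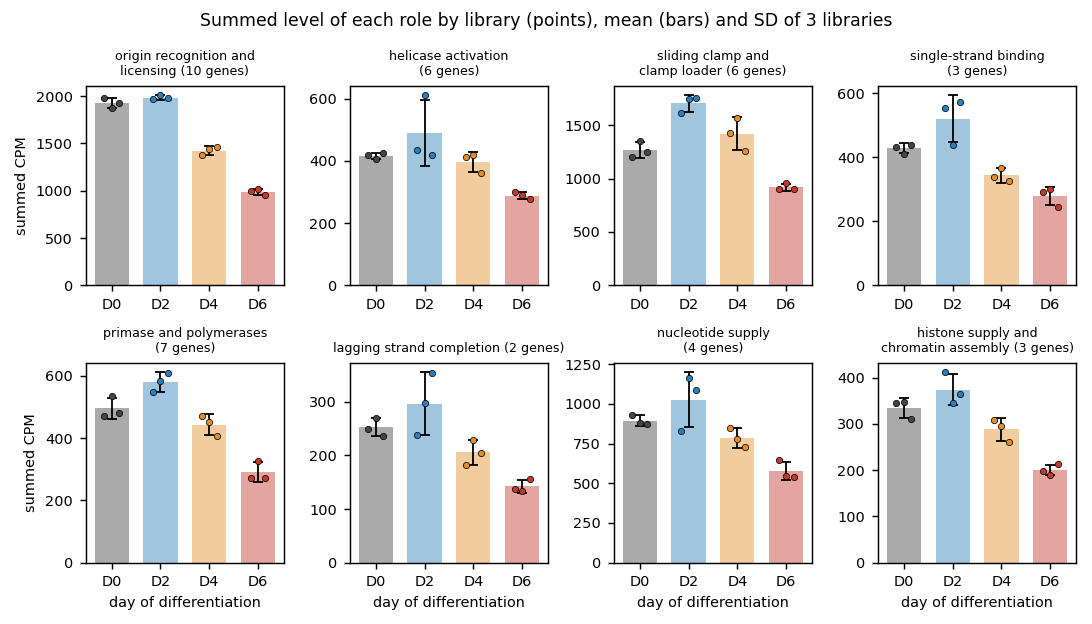
Summed CPM of the genes of each of 8 roles by day, with points for the 3 libraries, bars for their mean and error bars for their SD; every axis starts at 0. In each role the D6 mean is the lowest, and the clamp and clamp loader go from 1266 CPM at D0 to 1704 CPM at D2.

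Single-strand DNA at the fork is coated by the Rpa trimer. Rpa1, the large subunit, was at 191, 170.2 and 203 CPM at D0, 166, 201 and 233 at D2, 93.5, 124 and 115 at D4, and 93.2, 109 and 78.3 at D6. The D4 and D6 libraries lay below those of D0 and D2, with -0.72 ± 0.18 at D4 (adjusted p = 0.0013) and -0.98 ± 0.19 at D6 (adjusted p = 1.5e-05). With its 18.7% of reads of high mapping quality alone neither value was called (-0.22 at D4, adjusted p = 0.722, and -1.08 at D6, adjusted p = 0.0551). Rpa2 was lower at D6 by -0.58 ± 0.22 (adjusted p = 0.026), lost without D0 replicate 2 (adjusted p = 0.0954) or D6 replicate 3 (adjusted p = 0.128), with library totals (-0.34, adjusted p = 0.197), after thinning (-0.61, adjusted p = 0.243) and with limma-trend (-0.57, adjusted p = 0.0539). Rpa3 differed by -0.16 ± 0.19 (adjusted p = 0.53). With 1 library left out its value was lowest, at -0.35, without D0 replicate 2 and highest, at -0.116, without D0 replicate 3, and its sign turned with library totals (0.0853) and after thinning (0.33).

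Of the primase and polymerase genes, the 3 genes of polymerases delta and epsilon in the set (Pold1, Pold2 and Pole) were lower at D6, while the 4 genes of the polymerase alpha-primase complex, which lays the primers, were not called. The split changed with the setting and is not a test that their changes differ: with the mapping quality minimum Pold1 (-1.12, adjusted p = 0.0688) and Pole (-1.17, adjusted p = 0.209) were not called, while Pold2 and Prim1 were. After thinning Pold1 was at -1.20 (adjusted p = 0.115). Pold2, the most-read of them, was at 219, 202 and 159 CPM at D0, 158, 205 and 138 at D2, 167, 145 and 115 at D4, and 63.4, 75.3 and 103 at D6. Its D6 libraries lay below those of every other day (-1.24 ± 0.20 against D0, adjusted p = 8.4e-07). Pole, the catalytic subunit of polymerase epsilon, with 121 reads in all, was at 35.8, 35.2 and 41.9 CPM at D0, 15.8, 36.2 and 37.1 at D2, 16.3, 32.8 and 27.6 at D4, and 18.6, 25.1 and 5.40 at D6. It was lower at D6 by -1.29 ± 0.41 (adjusted p = 0.00981), and without D6 replicate 3, its lowest library, by -0.69 (adjusted p = 0.188).

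Pola1, Pola2, Prim1 and Prim2 differed at D6 by -0.23 ± 0.39, -0.13 ± 0.32, -0.46 ± 0.24 and -0.28 ± 0.29. With 1 library left out Pola1 was lowest, at -0.53, without D0 replicate 2 and highest, at -0.0537, without D6 replicate 3, and Prim2 from -0.57 (without D6 replicate 2) to -0.0909 (without D6 replicate 3). Pola2 was lowest, at -0.49, without D6 replicate 2, and its sign turned without D0 replicate 2 (0.0934), without D6 replicate 3 (0.38) and with library totals (0.12). The sign of Pola1 turned with library totals (0.0218) and after thinning (0.37), and that of Prim2 after thinning (0.17). The level of Pola2 was at 43.9 ± 15.3 CPM at D0, 77.5 ± 27.2 at D2, then 69.7 ± 5.01 at D4 and 43.8 ± 21.5 at D6, and its D4 libraries lay above all D0 libraries without being called (0.69 ± 0.28, adjusted p = 0.0607). Prim1 was called lower without D0 replicate 1 (-0.74, adjusted p = 0.0136) and with the mapping quality minimum (-1.07, adjusted p = 0.0222), which kept 53.8% of its reads. The ratio of Prim1 to Pold2 reads, another pair chosen after its values were seen, was 0.443 ± 0.169 at D0, 0.691 ± 0.259 at D2, then 0.634 ± 0.00549 at D4 and 0.765 ± 0.159 at D6. The D0 libraries (0.25 to 0.566) lay below those of D6 (0.632 to 0.941), and those of D2 (0.431 to 0.95) overlapped both.

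Fen1 and Lig1, which trim and join Okazaki fragments, were both lower at D6. Fen1 was at 138, 185 and 140.4 CPM at D0, 158, 153 and 217 at D2, 109.8, 136 and 104 at D4, and 93.2, 89.9 and 108 at D6, wholly below D0 (-0.67 ± 0.19, adjusted p = 0.00381). Lig1 was at 112, 85.1 and 96.4 CPM at D0, 79.2, 145 and 138 at D2, 73.2, 93.8 and 101 at D4, and 44.7, 43.9 and 48.6 at D6. Its D6 libraries lay below all others and close together (-1.05 ± 0.25 against D0, adjusted p = 0.000426). Mapping quality was low for both: 6.23% of Fen1 and 0.549% of Lig1 reads reached 10. Reads had been aligned to transcripts, and the 7 genes with reads of only 1 transcript had 99.8% to 100% of reads at 10 or above. Whether low scores came from transcripts of the same gene or from other genes was not tested. The Fen1 call was also lost with library totals (-0.43, adjusted p = 0.0537) and after thinning (-0.83, adjusted p = 0.052). With reads that reached 10 alone the Fen1 value was 0.21 and was not called, and Lig1 could not be tested. With reads of its most-read transcript alone, Lig1 was at -0.54 and was not called (adjusted p = 0.434).

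The nucleotide enzymes held the gene with the smallest adjusted p at D6 and 3 that were not called. Dut, the dUTPase that keeps uracil out of DNA (chr2:125247190-125258608, plus strand), was at 446, 399.7 and 394 CPM at D0, 356, 466 and 466 at D2, 256, 288 and 239 at D4, and 160.3, 159 and 151 at D6. D0 and D2 overlapped, D4 lay below both and D6 below D4, with -0.65 ± 0.13 at D4 (adjusted p = 0.000119) and -1.39 ± 0.15 at D6 (adjusted p = 1.3e-11). Both calls held in each of 23 alternative settings.

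Rrm2, the small subunit of ribonucleotide reductase, was at 253, 233 and 216 CPM at D0, 238, 349.5 and 408 at D2, 285, 229.8 and 246 at D4, and 190.1, 194 and 173 at D6. D2 overlapped D0 through D2 replicate 1 (0.53 ± 0.16, adjusted p = 0.0223), a call lost without D0 replicate 2 or 3 or D2 replicate 2 or 3 (adjusted p up to 0.269), with the mapping quality minimum (adjusted p = 0.0602), after thinning (adjusted p = 0.0864) and with limma-trend (adjusted p = 0.0683). At D6 the libraries lay below D0 and the difference of -0.32 ± 0.16 missed the threshold (adjusted p = 0.0988). It passed in 2 of 23 alternative settings, without D2 replicate 1 (adjusted p = 0.0428) and with only the days compared (adjusted p = 0.0389). Over the 23 it ran from -0.41 to -0.0779 (adjusted p up to 0.715). Rrm1, the large subunit, and Tyms, which makes thymidylate, differed at D6 by -0.18 ± 0.18 and -0.11 ± 0.21. With 1 library left out Rrm1 was lowest, at -0.36, without D6 replicate 1 and above 0, at 0.0219, without D6 replicate 2, and it was also above 0 with library totals (0.0663) and after thinning (0.10). Tyms was lowest, at -0.22, without D0 replicate 1 and highest, at -0.0254, without D6 replicate 2, and with library totals it turned to 0.14. The ratio of Rrm1 to Dut reads, chosen after its values were seen, was 0.335 ± 0.0267 at D0, 0.332 ± 0.114 at D2, then 0.567 ± 0.0911 at D4 and 0.825 ± 0.228 at D6.

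Of the chromatin genes, both measured subunits of chromatin assembly factor were lower at D6 and Slbp, which binds the stem-loop of replication-dependent histone mRNAs, was not called. Chaf1b was at 119, 124 and 107 CPM at D0, 198, 96.4 and 90.02 at D2, 77.3, 91.4 and 78.3 at D4, and 52.2, 58.6 and 56.7 at D6, where the libraries lay below those of every other day (-1.03 ± 0.23, adjusted p = 0.000224, and -0.95 with adjusted p = 0.119 after thinning). Chaf1a was lower (-0.92 ± 0.25, adjusted p = 0.00262), but with the 52.9% of its reads that had a mapping quality of at least 10 it was at -0.41 and was not called (adjusted p = 0.364), nor was it after thinning (-1.19, adjusted p = 0.0581). Slbp was at 117, 141 and 122 CPM at D0, 158, 161 and 217 at D2, 175, 129 and 119.7 at D4, and 116, 81.6 and 97.2 at D6. Its D2 libraries lay above and its D6 libraries below D0 (0.49 ± 0.20, adjusted p = 0.104, and -0.41 ± 0.20, adjusted p = 0.0892). The D6 difference was called in 1 of 23 alternative settings, with only the days compared in the fit (-0.45, adjusted p = 0.0455). Over the 23 it ran from -0.52 to -0.00582 (adjusted p up to 0.99).

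**Figure D4:**
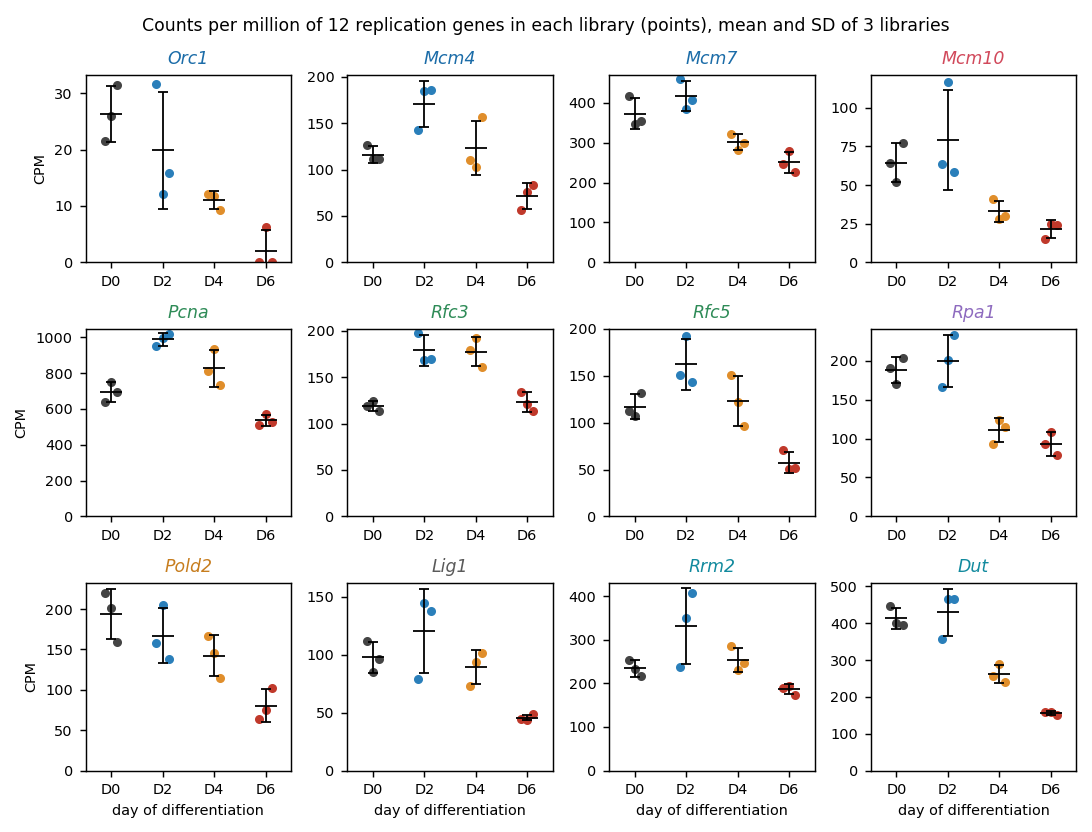
CPM of 12 of the genes in each library (points), with the mean (line) and SD (error bar) of the 3 libraries of a day; every axis starts at 0, where the lower bar of Orc1 at D6 is cut. Pcna stands highest at D2, and Rfc3 is about level at D2 and D4 (means of 179 and 177 CPM). The D6 points of Rfc3 overlap its D0 points (with a fitted sign that turned in 9 of 23 alternative settings), and Dut falls from about its D0 level at D2 to 157 CPM at D6.

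Pcna was also set against the helicase subunit Mcm6. The ratio of Pcna to Mcm6 reads was 2.12 ± 0.166 at D0, 3.06 ± 0.0791 at D2, then 3.67 ± 0.409 at D4 and 3.98 ± 0.148 at D6. The D0 libraries (1.96 to 2.29) lay below all later libraries (3.00 and above). This pair, too, was chosen after its values were seen.

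Other genes of the same pathway, listed by name, were read for comparison, each count at D6 to be set against the 18.2% of all genes tested that were lower and the 19.4% that were higher. Of 40 other fork and origin proteins tested, 13 were lower and 4 higher at D6 (median log2 fold change -0.38). The most lowered of the better-read ones were Gmnn, the inhibitor of Cdt1, by -1.45 ± 0.19 (220.2 ± 22.3 CPM at D0, 82.2 ± 15.9 at D6), and Rnaseh2a, a subunit of ribonuclease H2, by -1.01 ± 0.22. The most raised were Top2b, the topoisomerase II of non-dividing cells, by 1.38 ± 0.23 (58.3 ± 15.3 to 145.6 ± 15.8 CPM), and Chtf8, a subunit of an alternative clamp loader, by 0.75 ± 0.22. Of 27 other nucleotide genes, 18 were lower and 2 higher at D6 (median -0.82), with Dctd (-1.91 ± 0.46) and Shmt1 (-1.79 ± 0.33) lowest and Cmpk1 raised (0.78 ± 0.23). Of 24 fork checkpoint and repair genes, 11 were lower and 0 higher (median -0.62, 1 higher at an unadjusted p under 0.05), among them Ung, which removes uracil from DNA (-2.91 ± 0.43), already lower at D4 (-1.23 ± 0.28).

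Regulators of these genes formed another list. Of 18 genes of the E2F, pocket protein and DREAM families, 3 were lower and 3 higher at D6 (median -0.17), shares close to the 18.2% and 19.4% of all genes. Lower were E2f3 (-1.12 ± 0.37) and Mybl2 (-0.93 ± 0.32) among the better-read ones, and no raised gene of the list reached a mean of 10 reads per library. Of 13 cohesion genes, 3 were lower and 0 higher (against 18.2% and 19.4% of all genes, median -0.24, 0 higher at an unadjusted p under 0.05 by limma-voom), with Cdca5, needed for sister chromatid cohesion, at -1.62 ± 0.28 and Nipbl, the cohesin loader, at -0.91 ± 0.33.

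Most of the 41 genes were read mainly as their coding transcript: 40 had a protein-coding transcript as the most-read one, and in 24 it took over 90% of reads. The exception was Cdt1, of whose 524 reads 280 were assigned to a retained-intron transcript (ENSMUST00000212967.1, chr8:122568026-122573554) and 244 to the coding one (ENSMUST00000006760.2, chr8:122568015-122573128). The retained-intron share of Cdt1 was 57.5% ± 13.7 at D0, 53.8% ± 11.5 at D2, then 38.9% ± 23.1 at D4 and 57.8% ± 14.4 at D6, and the days overlapped (D6 against D0, exact permutation test, two-sided p = 0.9, where 0.1 is the smallest that 3 against 3 can give). A retained-intron transcript was tested in this way in 4 genes, chosen after their values were seen, with 0 below 0.05, which the design cannot reach. That of Pcna (ENSMUST00000140338.1) went from between 4.44% and 7.09% of Pcna reads at D0 to between 1.46% and 4.04% at D6 without overlap (exact p = 0.1, adjusted over the 4 tests 0.4), while p was 0.2 for Gins2 and 1 for Chaf1a. Over all 41 genes the retained-intron share was 5.38% ± 1.43 at D0 and 3.80% ± 1.09 at D6, against 1.81% ± 0.318 and 1.71% ± 0.276 over all genes. Of the Cdt1 reads 49.4% had a mapping quality of at least 10, so the split between its transcripts is uncertain. Median aligned length of reads was 866.5 to 1249 bases for the set and 649 to 835 bases for all genes, by library.

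Tail lengths were compared gene by gene in the same reads. Of the 41 genes, 37 had enough reads for the tail fit (Orc1, Gins3, Pola1 and Pole did not), and 0 of the 37 had longer or shorter tails than at D0 at any day. At D6 the background was 2.35% of 4205 genes longer and 3.38% shorter, at D2 0.0476% and 2.47%, and at D4 0.214% and 3.71%. At an unadjusted p under 0.05 the limma counts were 2 longer (Lig1 and Mcm6) and 0 shorter at D6, against 485 and 266 of all 4205 genes. They were 1 longer and 3 shorter at D2, against 65 and 321, and 1 longer and 2 shorter at D4, against 141 and 370. The median log2 change at D6 was 0.10 for the 37 and 0.06 for all genes, with 27 of 37 above 0 (73.0%) against 64.1% of all genes.

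Lig1 had the largest lengthening, from medians of 82.2, 92.5 and 107 nt at D0 to 100.3, 131 and 127 nt at D6 (0.42 ± 0.14 on the log2 scale, or 34.0%, adjusted p = 0.0617). Its D6 replicate 1 overlapped D0, and it was called longer without D0 replicate 3 or without D6 replicate 1. Cdc6 came next at 0.23 ± 0.15, with 119, 129.6 and 109.5 nt at D0 and 137, 139.9 and 122 nt at D6. The largest shortenings were those of Cdc45 (-0.17 ± 0.17, from 133, 133 and 115 nt to 94.3, 130.3 and 96.1 nt) and Rpa3 (-0.17 ± 0.11, from 104, 116 and 142 nt to 110.2, 101 and 114 nt), and both overlapped between the days. Pcna, with the most reads, had a tail of 107 ± 4.85 nt at D0 and of 112 ± 4.48 nt at D6 (0.04 ± 0.05).

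By gene, the median tail of the 37 was 107.6 nt on D0 (from 83.0 nt for Gins4 to 127 nt for Slbp) and 112 nt at D6 (from 86.3 nt for Prim1 to 149.6 nt for Slbp), close to the 107.4 nt and 112.5 nt of all genes tested, and 19 of the 37 lay above the median of all genes at D0. With reads pooled instead, the median of the set was 108 ± 2.93 nt at D0 and stood at 111 ± 2.86 nt at D6, above that of all other reads (103 ± 2.67 and 102 ± 1.04 nt) in each of the 12 libraries. Pooled reads weight genes by their abundance, and medians by gene do not. Pooled tails of at least 150 nt made up 26.7% ± 1.55 of the set's reads at D0 and 30.5% ± 2.14 at D6, against 21.3% ± 0.982 and 24.2% ± 0.727 of other reads.

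**Figure D5:**
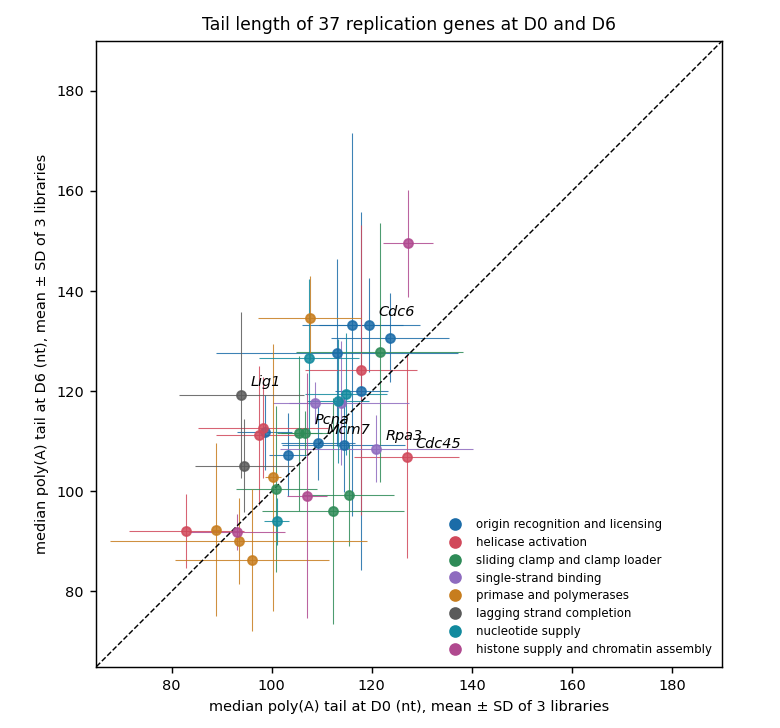
Median poly(A) tail length of each of 37 genes at D0 (horizontal) and D6 (vertical), in nt, as the mean ± SD of 3 libraries, coloured by role; the dashed line marks equal length. The points scatter around the line with error bars that cross it for most genes, Lig1 lying above it (93.95 and 119 nt) and Cdc45 below (126.9 and 107 nt).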

How the data were processed

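Direct RNA libraries of 12 P19 cultures (4 days, 3 replicates) were analysed from the table of single reads that the authors deposited. Per the study's methods, the authors used Guppy for base calling and minimap2 2.20 for alignment to mm10 and GENCODE vM17 transcripts. Nanopolish gave their tail lengths, and Deeplexicon their barcodes. The table deposited by the authors holds, per read, a mapping quality score, the barcode confidence as a fraction and the tail length in nt. A second deposited table holds only log2 fold changes, p-values and call labels of the authors' own comparisons and was not used. Groups came from the sample labels.

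Of 6306434 lines, 69 were malformed and 4.587% had no barcode. Reads tagged PASS (77.67% of assigned lines) and classed mRNA were kept, without mitochondrial and pseudogene reads, and counted by gene. As the values used were single reads rather than a count table, gene counts were tested with limma-voom (limma 3.58.1, R 4.3.3) with TMM scaling (trims of 30% and 5%, written for this work), a prior of 0.5 reads, genes with at least 30 reads and Benjamini-Hochberg adjustment over all genes tested. Tails were tested with limma on mean log2 length (floor 1 nt) weighted by reads, for genes averaging 10 or more reads a library, with 3 or more in every one. Python 3.11.15 was used for the rest. The procedures were tested on simulated data. Alternatives varied scaling, filters, mapping quality, transcript choice, depth, shared spread, replicate block, variance model, barcode confidence and the libraries kept. The labels call the libraries replicates, and p-values measure the spread between them. Replicates of a day differed by more than counting noise (chi-square per degree of freedom 1.11 to 1.66), so each was counted as 1 sample.

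The members and gene lists were chosen with earlier results of these data known. Values per library are given, by rule, for the most-read gene and the gene with the largest change at D6 in each role and for genes called higher in any comparison, and also for Mcm6. Mcm6, the means of Cdt1, Cdc6 and Pola2, and the 4 read ratios were chosen after their values were seen. For tails, the 2 largest changes in each direction at D6 are named. Genes of other lists named were the 2 largest called changes in each direction averaging 10 or more reads a library. A gene that this rule would name is not reported here.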

Additional observations from a re-analysis of the deposited data

How the results depend on the processing

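Replacing trimmed-mean scaling by library totals moved the median of all genes against D0 by 0.18 (D2), 0.13 (D4) and 0.25 (D6), and by 0.11 from D4 to D6 (log2). The cause of the moves below was not tested, except that thinning and the mapping quality minimum leave fewer reads. Among the alternatives, counts over all genes are given only for library totals. The other counts below have no such background and do not show a change of the set against all genes. Of the calls, 1 of 4 at D2, 1 of 13 at D4 and 9 of 26 at D6 held in every setting that gave a value. So did 0 of 5 from D2 to D4 and 3 of 10 from D4 to D6. For Orc1, among the 9 at D6, 21 settings gave a value, and for the other calls that held 23 did.

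Genes of the set higher at D2 numbered 9 with library totals, 2 without a filter, 2 with a mapping quality of at least 10, 1 after thinning, 2 with limma-trend and 2 with a barcode confidence of at least 0.9. Genes higher at D4 numbered 3 with library totals, and 2 each with at least 120 reads, the mapping quality minimum, the most-read transcript and only the days compared. Genes lower at D4 numbered 5 with library totals, 2 after thinning and 6 with limma-trend. Genes lower at D6 numbered 16 with the mapping quality minimum and 12 after thinning. From D2 to D4 the number lower was 9 with median-of-ratios scaling, library totals, at least 120 reads or limma-trend, 1 with the mapping quality minimum and 2 after thinning, and from D4 to D6 it was 4 after thinning. Longer tails at D6 numbered 1 with a mean of at least 20 reads and 1 with the barcode minimum.

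The median change of the set at D2 was 0.35 with library totals and 0.35 after thinning. At D4 it was -0.10 with library totals and -0.036 with the mapping quality minimum. At D6 it was -0.45 with library totals, -0.59 with the mapping quality minimum, -0.61 after thinning, -0.76 with only the days compared and -0.79 with the barcode minimum. From D2 to D4 it was -0.34 with the mapping quality minimum, and from D4 to D6 -0.42 with library totals and -0.61 after thinning. The median tail change at D6 was 0.0507 with the mapping quality minimum.

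Leaving out 1 library at a time gave 1 to 5 higher at D2, 0 to 2 higher and 5 to 12 lower at D4, and 3 to 6 lower from D2 to D4. It gave 0 to 2 shorter tails at D4 (2 without D0 replicate 2, 1 without D4 replicate 1) and 0 to 1 longer at D6. Medians ran from -0.78 to -0.67 at D6, from -0.44 to -0.33 from D2 to D4, from -0.0622 to 0.0208 for tails at D2 and from 0.0431 to 0.10 for tails at D6.

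Signs turned for single genes. With the mapping quality minimum, D4 values were 0.29 (Cdc6) and 0.57 (Mcm5) and D6 values 0.0545 (Cdc6) and 0.21 (Fen1). With library totals, D6 values were 0.0512 (Gins2), 0.0853 (Rpa3), 0.0218 (Pola1), 0.12 (Pola2), 0.0663 (Rrm1) and 0.14 (Tyms). After thinning they were -0.10 (Rfc3), 0.33 (Rpa3), 0.37 (Pola1), 0.17 (Prim2) and 0.10 (Rrm1). Rfc3 was at -0.00259 with only the days compared and from -0.0306 to 0.0891 with 1 library left out. With 1 library left out Gins3 ran from -0.66 to 0.0642 (above 0 without D0 replicate 1), Rrm1 from -0.36 to 0.0219 (above 0 without D6 replicate 2) and Pola2 from -0.49 to 0.38 (above 0 without D0 replicate 2, at 0.0934, or D6 replicate 3).

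Same-numbered replicates of different days correlated between -0.134 and 0.172 in their deviations from the day means, with 4 of 18 pairs over 0.1 and 8 of 18 best with their own number. Own numbers were best 2 times for D2 and D4, 3 for D2 and D6 and 2 for D4 and D6. For D0 with D2, D4 and D6 they were best 0, 1 and 0 times. Whether same-numbered replicates share a batch or barcode was not tested. With the replicate block, 3 genes were higher at D2, 1 higher and 8 lower at D4, 25 lower at D6, 5 lower from D2 to D4 and 10 lower from D4 to D6, and 0 of 37 tails were called. Depth limits Gins3, Orc1, Pola1 and Pole most, at 57 to 121 reads each.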
